A study of Homo sapiens with 6 samples.

Results

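The zinc finger genes of chromosome 19 were taken as every protein-coding row of the gene table on chromosome 19 whose symbol is ZNF followed by a number, with an optional trailing letter, at any level of expression. That gave 246 of the 58735 genes in the table. PolyA RNA was sequenced from HEY cells, a human ovarian cancer line, in 3 libraries from cells that overexpress miR-200a and 3 from cells that carry an empty vector. Both groups grew in RPMI-1640 with fetal bovine serum. Incubation is labelled as 48, 49 and 50 h for the miR-200a libraries 1, 2 and 3 and as 51, 52 and 53 h for the vector libraries 1, 2 and 3, so hours and group cannot be told apart. No label states that a group's libraries are separate cultures; p-values here cover the spread among libraries, which may be technical. No source used here says how the vector was delivered or whether a group was 1 clone.

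Most genes of this family encode proteins with a row of C2H2 zinc fingers, small zinc-binding loops that read DNA, and many also carry a Krüppel-associated box (KRAB) at the amino end. The KRAB box recruits TRIM28, which brings in the methyltransferase SETDB1 and heterochromatin proteins, and the genes are best known for silencing transposable elements. On human chromosome 19 they lie in tandem clusters that grew by repeated duplication, so neighbours are often close copies of each other. No source used here says how reads matching several genes were handled, and the separate levels of neighbouring copies are uncertain to that extent.

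The libraries held 15849592 to 21003858 recovered reads on genes. The precursor gene MIR200A had 5, 4 and 11 reads in miR-200a libraries 1, 2 and 3 and 0 reads in each vector library. Of the carcinoma markers looked at, PAX8 stood at 29.1 to 41.2 FPKM (fragments per kilobase of gene, adjusted for library size), and KRT8 at 96.6 to 124, whereas EPCAM reached at most 0.466 FPKM, WT1 at most 1.26 and MUC16 was listed at 0 in all 6 libraries. KRT7 stood at 158 to 195 FPKM in miR-200a libraries and 126 to 142 in vector libraries, and KRT18 at 104 to 131 in miR-200a libraries and 89.2 to 102 in vector libraries, both without overlap. The leukocyte markers PTPRC, CD3E and CD68 reached at most 0.0565 FPKM. Of the endothelial markers, PECAM1 and VWF reached at most 0.428 FPKM but CDH5 stood at 35.2 to 51.1. The part of these genes' cell types in the results was not tested.

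Translated from the longest coding sequence of each gene in GENCODE 29, the 246 proteins had a median of 12 C2H2 fingers (the pattern of C, any 2 residues, C, any 12, H, any 3 to 5, H) and a median length of 591 residues. ZNF208 had the most, 36, and ZNF738 had 0. A run typical of the KRAB box was found in 198 members. Either of a pair of runs counted, F-any-any-EEW-any-any-L or Y-any-DVM-any-E, so diverged boxes are missed. The deposited table itself places 238 of the 246 in its zf-C2H2 family.

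With members joined when their starts lay under 1 Mb apart, 235 of them fell into 9 clusters of at least 5. On GRCh38 these were cluster 1 at 2.8 to 2.9 Mb (5 members), cluster 2 at 7.1 to 9.8 Mb (15 members), cluster 3 at 11.5 to 12.6 Mb (25 members) and cluster 4 at 19.7 to 24.1 Mb (37 members). Next came cluster 5 at 34.7 to 35.0 Mb (5 members), cluster 6 at 36.2 to 37.8 Mb (26 members), cluster 7 at 43.5 to 45.1 Mb (24 members), cluster 8 at 51.6 to 53.6 Mb (39 members) and cluster 9 at 55.5 to 58.5 Mb (59 members). The other 11 members lay alone or in groups of fewer than 5.

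Promoters of the clusters differed in a short sequence, which is shown here because it divides the family by position. RefSeq promoter windows (GRCh38.p14, 250 bases before to 50 after the annotated start) were matched by symbol for 215 members. The 7-mer CCAATCA, which holds the CCAAT core bound by the factor NF-Y, was found on either strand in 29 of 29 promoters of cluster 4, 22 of 24 of cluster 3 and 4 of 5 of cluster 1, and in 0 of 14 of cluster 2, 0 of 4 of cluster 5, 0 of 24 of cluster 6, 1 of 20 of cluster 7, 1 of 32 of cluster 8 and 5 of 54 of cluster 9. Clusters 1, 3 and 4 thus held 55 of the 63 members with the run. It occurred in 8.57% of 14896 promoters of protein-coding genes and in 15.6% of 211 promoters of ZNF-number genes on other chromosomes.

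In cluster 4 all 45 occurrences read in the direction of the gene, with a median position 57 bases before the start and a range of 87 to 23 bases before it. The 7-mer CCGGAAG, the core bound by ETS factors, was found on either strand in 98 of the 215 member promoters (45.6%), against 14.4% of all protein-coding promoters and 13.2% of those of the other protein-coding genes on chromosome 19. It stood in 21 of 29 promoters of cluster 4, 20 of 32 of cluster 8 and 33 of 54 of cluster 9, but in 2 of 24 of cluster 3. Both runs were picked after ranking all 7-mers by how much more often member promoters hold them. The members of a cluster share ancestry, so their promoters are not independent cases, and a match is a description of the letters only.

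The promoters of ZNF714, the most abundant member of cluster 4, and of ZNF208, a member of the same cluster listed at 0 in all 6 libraries, show the CCAATCA pair that they share. ZNF791 is the most abundant member of cluster 3, and ZNF816 and ZNF766 are members of cluster 8, which is described further on. The build is GRCh38.p14, each sequence runs 5′ to 3′ on the strand of the gene, and capitals mark CCAATCA and CCGGAAG on either strand.
ZNF714 (chr19:21081953-21082252, + strand): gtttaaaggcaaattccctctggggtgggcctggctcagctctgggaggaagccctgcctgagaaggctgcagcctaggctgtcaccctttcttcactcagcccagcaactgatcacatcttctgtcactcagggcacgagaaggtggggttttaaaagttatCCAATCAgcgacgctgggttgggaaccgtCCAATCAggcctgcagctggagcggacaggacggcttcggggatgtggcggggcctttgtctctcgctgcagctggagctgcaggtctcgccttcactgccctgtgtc
ZNF208 (chr19:22010894-22011193, - strand): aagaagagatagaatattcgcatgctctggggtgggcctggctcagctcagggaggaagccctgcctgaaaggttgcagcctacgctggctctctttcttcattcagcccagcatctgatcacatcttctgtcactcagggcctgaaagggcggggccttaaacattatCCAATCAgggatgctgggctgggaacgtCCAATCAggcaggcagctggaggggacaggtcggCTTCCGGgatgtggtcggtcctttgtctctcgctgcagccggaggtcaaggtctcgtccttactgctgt
ZNF791 (chr19:12610670-12610969, + strand): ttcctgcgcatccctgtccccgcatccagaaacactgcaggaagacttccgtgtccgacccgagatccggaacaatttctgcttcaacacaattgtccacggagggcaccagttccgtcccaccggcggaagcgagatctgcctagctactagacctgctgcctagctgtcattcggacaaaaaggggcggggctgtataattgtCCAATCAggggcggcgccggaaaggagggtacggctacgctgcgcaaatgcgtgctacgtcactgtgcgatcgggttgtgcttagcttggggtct
ZNF816 (chr19:52962832-52963131, - strand): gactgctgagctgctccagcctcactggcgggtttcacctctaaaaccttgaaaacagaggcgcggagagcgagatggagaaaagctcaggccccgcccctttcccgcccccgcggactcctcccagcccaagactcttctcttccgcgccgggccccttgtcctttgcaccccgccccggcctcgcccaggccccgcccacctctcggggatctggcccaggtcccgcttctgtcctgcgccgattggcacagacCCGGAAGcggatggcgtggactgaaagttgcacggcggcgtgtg
ZNF766 (chr19:52269337-52269636, + strand): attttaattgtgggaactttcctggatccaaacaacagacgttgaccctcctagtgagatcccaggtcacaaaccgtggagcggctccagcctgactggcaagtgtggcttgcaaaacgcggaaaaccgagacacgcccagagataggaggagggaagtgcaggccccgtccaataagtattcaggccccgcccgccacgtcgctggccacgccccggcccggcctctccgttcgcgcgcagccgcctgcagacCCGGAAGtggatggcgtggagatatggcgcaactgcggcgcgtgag

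Most members were expressed at low levels. Members with 3 or more libraries at 1 FPKM or above numbered 134, and these were tested. Of the other 112, 19 were listed at 0 in all libraries and 93 lay above 0. ZNF653 was the 1 member that passed through the miR-200a libraries alone, and 0 members passed through the vector libraries alone. Some members, among them ZNF649, ZNF573, ZNF816 and ZNF790, still needed the vector libraries, where they were higher, to pass. The tested members nearest to the limit were ZNF324B, ZNF653 and ZNF430, where the level that 3 libraries reached stood at 1.01, 1.02 and 1.04 FPKM, and the nearest below it were ZNF225, ZNF486 and ZNF880 at 0.960, 0.959 and 0.943 FPKM.

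The tested members had a median of 2.11 FPKM, against 6.01 FPKM for all 12231 genes tested, and 94.8% of them lay below the median of all genes. A median of 189.5 reads per library stood behind a tested member's value. Only 15 members averaged at least 5 FPKM over the 6 libraries and 3 at least 10.

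ZNF146, a protein made almost wholly of zinc fingers, was the most abundant member and gave 7.91% of the family's summed level. It stood at 30.7, 35.0 and 31.7 FPKM in miR-200a libraries 1, 2 and 3, against 37.7, 35.7 and 34.2 FPKM in vector libraries 1, 2 and 3. ZNF787 stood at 14.4, 10.2 and 12.9 FPKM in miR-200a libraries, against 8.52, 10.5 and 14.0 in vector libraries. ZNF581 stood at 13.1, 11.001 and 13.2 FPKM in miR-200a libraries, against 11.1, 11.4 and 12.1 in vector libraries. The ranges of the groups overlapped in each of these genes. The next in order of mean level were ZNF121 (8.31 FPKM in miR-200a and 10.0 in vector cells), ZNF317 (8.58 FPKM in miR-200a and 8.68 in vector cells) and ZNF358 (7.50 FPKM in miR-200a and 6.28 in vector cells). ZNF302 followed with 6.17 FPKM in miR-200a and 6.34 in vector cells, and ZNF83 with 5.63 FPKM in miR-200a and 6.32 in vector cells. The lowest library of ZNF146 lay above every library of the other members, and all libraries of ZNF581 lay above those of ZNF121, whereas the ranges of the other neighbours in this order overlapped.

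Members listed at 0 were most frequent in cluster 4, the block beside the centromere. Of its 37 members 12 were listed at 0 in all 6 libraries, among them ZNF208, ZNF257, ZNF676, ZNF729, ZNF98, ZNF99 and ZNF492. That is 12 of the 19 members at 0, and the others were ZNF536, ZNF781, ZNF534, ZNF578, ZNF667, ZNF835 and ZNF135. The median level of all members was 0.267 FPKM in cluster 4, against 0.670 and 0.698 FPKM in clusters 1 and 6, 0.952 to 1.29 FPKM in clusters 3, 7 and 8, 1.55 FPKM in cluster 5, 1.86 FPKM in cluster 9 and 2.41 FPKM in cluster 2. All 29 promoters of cluster 4 that were matched held CCAATCA, among them those of 7 of the 12 members listed at 0; the other 5 were not matched to a promoter window.

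**Figure D1:**
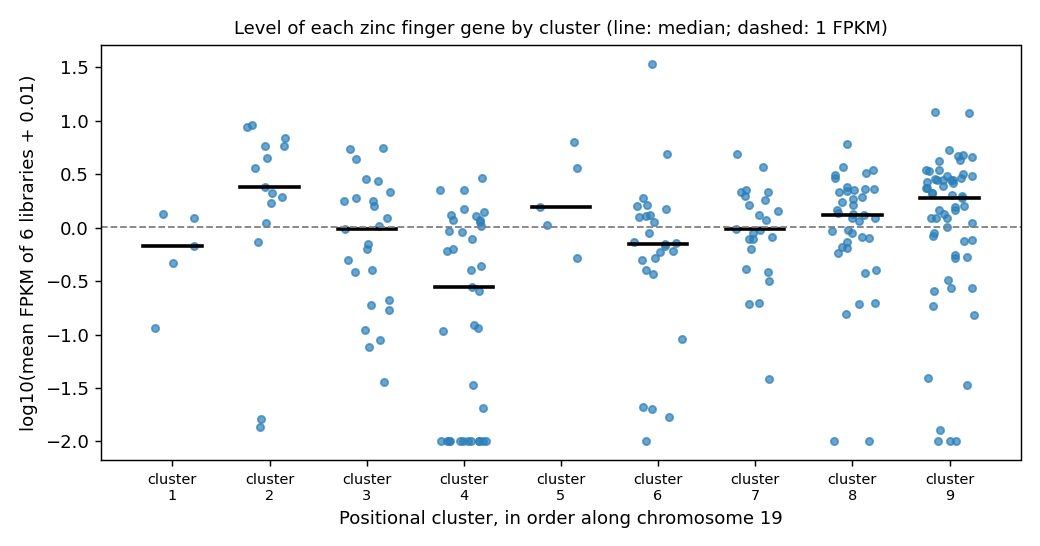
Each point is 1 member, with its mean FPKM over the 6 libraries on a log10 axis after adding 0.01, by positional cluster in order along chromosome 19; the black line is the cluster's median and the dashed line 1 FPKM. Cluster 4 (19.7 to 24.1 Mb) has the lowest median, 0.267 FPKM, and 12 members at 0, which lie on the bottom line.

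The comparison of the design is miR-200a against the empty vector. No zinc finger gene of chromosome 19 passed the test: of 134 tested members 0 rose and 0 fell with limma at an adjusted p under 0.05, where 0.286% of all tested genes rose and 0.114% fell. The lowest limma adjusted p was 0.208, for ZNF524. At an unadjusted limma p under 0.05, 16 members were lower and 2 higher with miR-200a, against 6.35% and 6.92% of all tested genes. With limma voom, chosen after the data were seen and run on whole reads recovered from the FPKM values, 0 members passed as well, where 0.981% of all genes passed, and the lowest adjusted p was 0.144, for ZNF649.

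Below the threshold, more members were lower than higher with miR-200a. With a correction for GC content and gene length, the share lower without overlap was no longer above that of all genes. Among the 134 tested members the 3 miR-200a libraries all lay below the 3 vector libraries in 31 (23.1%) and all above in 3 (2.24%), whereas this held for 10.7% and 8.29% of all tested genes. Among the 227 members above 0 in any library, whatever their level, 44 were lower and 7 higher without overlap, against 6.26% and 6.4% of all genes above 0. The median log2 difference of the tested members was -0.073 (on the log2(FPKM + 1) scale, miR-200a minus vector), against -0.009 for all tested genes. Below 0 were 88 of the 134 members, against 6352 of all 12231 tested genes. With the correction, 17 of the 134 members were lower and 9 higher without overlap. Both shares lay under those of all tested genes, 13.3% and 10.96%. The median was -0.035, against -0.011 for all tested genes. No test of the family as a group was made, since genes of 1 cluster are not independent.

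Other gene groups are given beside it. The other 543 tested protein-coding genes on chromosome 19 had a median of 0.12, with 11 (2.03%) lower and 40 (7.37%) higher without overlap. The 173 tested ZNF-number genes on other chromosomes had a median of 0.001, with 23 (13.3%) lower and 14 (8.09%) higher. Of all tested genes 10.7% were lower and 8.29% higher. These differences between gene groups are descriptions and were not tested.

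Summed over all members, the level was 421, 423 and 423 FPKM in miR-200a libraries 1, 2 and 3, against 449, 433 and 445 FPKM in vector libraries 1, 2 and 3. The groups did not overlap, and the mean of the miR-200a libraries was 0.955 of that of the vector libraries. Without cluster 8, singled out after its values were seen, the groups overlapped, and the ratio was 0.975. The sums were then 368, 365 and 370 FPKM in miR-200a libraries, against 381, 368 and 382 in vector libraries. The family took 0.219%, 0.226% and 0.220% of the reads in miR-200a libraries, against 0.242%, 0.230% and 0.235% in vector libraries. Of the summed FPKM of all genes it took 0.169%, 0.163% and 0.170% in miR-200a libraries, against 0.182%, 0.164% and 0.172% in vector libraries, and on that scale the groups overlapped. Fewer cells with these transcripts and less of them per cell cannot be told apart in such bulk RNA.

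Gene by gene the pattern was less even across libraries. The median deviation of the tested members from each gene's mean over the 6 libraries, on the log2(FPKM + 1) scale, was -0.070, 0.002 and -0.045 in miR-200a libraries 1, 2 and 3 and 0.077, 0.017 and 0.018 in vector libraries 1, 2 and 3. miR-200a library 2 thus lay close to vector libraries 2 and 3, and vector library 1 stood highest.

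The lower levels were most frequent in cluster 8 (chromosome 19, 51571298 to 53580269, from ZNF175 to ZNF331). Of its 39 members 23 were tested, and 22 of these had a negative log2 difference, against 6352 of all 12231 tested genes. Of the 23, 15 were lower without overlap and 0 higher, where 10.7% and 8.29% of all tested genes were. The median log2 difference was -0.22, the lowest of the 9 clusters. With a correction of each library for GC content and gene length, 7 were lower and 1 higher without overlap, against 13.3% and 10.96% of all tested genes, and the median was -0.14. The cluster was singled out after these values were seen, so they are a description and carry no test. Of the 37 members above 0 in any library, 18 were lower and 0 higher without overlap, against 6.26% and 6.4% of all genes above 0.

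The summed level of cluster 8 was 52.5, 58.8 and 53.5 FPKM in miR-200a libraries 1, 2 and 3, against 68.6, 64.5 and 62.9 FPKM in vector libraries 1, 2 and 3. The highest miR-200a library, number 2, lay below the lowest vector library, and the mean with miR-200a was 0.840 of that with the vector. The sums of 2 other clusters did not overlap either. Cluster 3 summed to 33.1, 36.6 and 34.4 FPKM in miR-200a libraries, against 41.5, 37.7 and 37.2 in vector libraries, a ratio of 0.894. Cluster 6 summed to 50.6, 57.8 and 51.5 FPKM in miR-200a libraries, against 63.1, 60.7 and 59.9 in vector libraries, a ratio of 0.871. Of those sums ZNF146, whose own groups overlapped, gave 30.7, 35.0 and 31.7 FPKM with miR-200a and 37.7, 35.7 and 34.2 with the vector. Without cluster 8 the remaining 111 tested members had a median log2 difference of -0.042. Of them 16 (14.4%) were lower and 3 (2.70%) higher without overlap, against 10.7% and 8.29% of all tested genes.

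**Figure D2:**
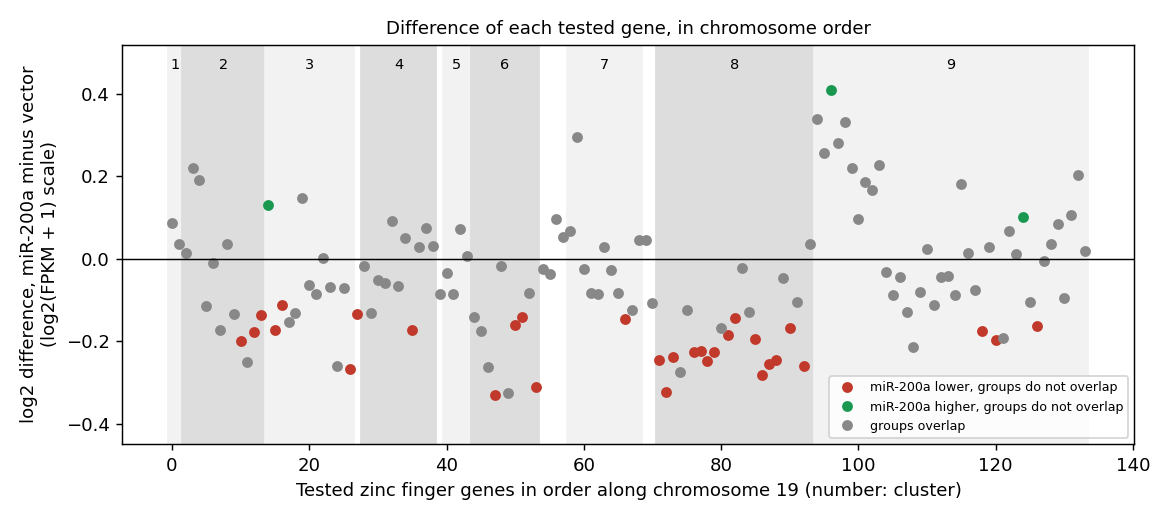
Each point is 1 of the 134 tested members in order along chromosome 19, with its log2 difference (miR-200a minus vector, log2(FPKM + 1) scale); shading and numbers mark the clusters, and colour marks genes whose groups do not overlap. In cluster 8, 22 of 23 points lie below 0 and 15 are lower without overlap, and the points above 0.2 lie mostly at the start of cluster 9.

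ZNF649, a KRAB protein reported to repress serum response and AP-1 activity, had the lowest p of cluster 8. It stood at 0.968, 0.918 and 1.04 FPKM in miR-200a libraries 1, 2 and 3 (77, 64 and 85 reads), against 1.40, 1.46 and 1.56 FPKM in vector libraries 1, 2 and 3 (129, 114 and 110 reads). All miR-200a libraries were lower, at 0.662 of the vector level, with a log2 difference of -0.32 (SE 0.094, limma adjusted p = 0.267). Its miR-200a libraries 1 and 2 lay under the 1 FPKM limit, so ZNF649 passed it through the vector libraries, where it was higher. Its place among the tested decreases is therefore no support for a difference.

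Other members of cluster 8 with large negative differences were ZNF888, ZNF761, ZNF816 and ZNF766. ZNF888 stood at 1.49, 1.80 and 1.63 FPKM in miR-200a libraries, against 2.09, 2.25 and 2.28 in vector libraries (limma adjusted p = 0.288). ZNF761 stood at 2.20, 2.06 and 1.998 FPKM in miR-200a libraries, against 2.84, 2.87 and 2.39 in vector libraries (limma adjusted p = 0.318). ZNF816, whose promoter is printed above, stood at 1.09, 1.32 and 0.954 FPKM in miR-200a libraries, against 1.62, 1.56 and 1.42 in vector libraries (limma adjusted p = 0.370). In these genes every miR-200a library lay below every vector library. ZNF816 missed the 1 FPKM limit in miR-200a library 3 and needed the vector libraries, where it was higher, to pass.

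ZNF766 stood at 2.13, 2.25 and 1.57 FPKM in miR-200a libraries, against 2.79, 2.43 and 2.37 in vector libraries (limma adjusted p = 0.406). ZNF160, a KRAB protein reported to repress the TLR4 gene, stood at 3.32, 3.45 and 3.06 FPKM in miR-200a libraries, against 4.497, 3.76 and 3.96 in vector libraries (limma adjusted p = 0.321). Both were lower in every miR-200a library. ZNF83, the most abundant member of the cluster, stood at 5.12, 6.13 and 5.65 FPKM in miR-200a libraries, against 6.58, 6.22 and 6.17 in vector libraries, with miR-200a library 2 just below vector library 3.

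Some of cluster 8 lay close to 0 or had overlapping groups. ZNF331, an imprinted gene at its far end, stood at 1.86, 1.83 and 1.94 FPKM in miR-200a libraries, against 1.90, 1.74 and 1.77 in vector libraries, and was the 1 tested member with a positive log2 difference. ZNF611 averaged 2.11 ± 0.189 FPKM in miR-200a libraries and 2.15 ± 0.126 FPKM in vector libraries (SD, n = 3 each). ZNF808, which silences MER11 elements and whose loss causes failure of pancreas development, averaged 1.15 ± 0.105 FPKM in miR-200a libraries and 1.42 ± 0.247 FPKM in vector libraries, with overlapping groups (limma adjusted p = 0.518). ZNF350, a partner of BRCA1 in repressing GADD45A, lay under the limit at 0.907 ± 0.0318 FPKM in miR-200a libraries and 0.837 ± 0.123 FPKM in vector libraries.

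Within the same stretch, 9 genes that are no members were tested. Their median log2 difference was -0.12, and 1, the noncoding AC011468.1, was lower without overlap, where 10.7% of all tested genes were. Only SPACA6 and PPP2R1A among the 9 are protein-coding, and both had a positive log2 difference (0.089 for SPACA6). The rest are pseudogenes or noncoding genes, among them the zinc finger pseudogenes ZNF137P (0.036) and ZNF702P (-0.12). PPP2R1A, which encodes the scaffold subunit of protein phosphatase 2A, had the highest level of the 9 and stood at 33.6, 27.2 and 34.3 FPKM in miR-200a libraries, against 30.1, 25.9 and 28.4 in vector libraries. Its log2 difference was 0.16 (limma adjusted p = 0.515), with overlapping groups and a GC content of 53.7%.

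Outside cluster 8, ZNF567 and ZNF573 of cluster 6 had negative differences of similar size, and ZNF790 of the same cluster had one of -0.33 with overlapping groups. ZNF567 stood at 1.011, 1.62 and 1.30 FPKM in miR-200a libraries, against 2.16, 1.78 and 1.74 in vector libraries, at 0.692 of the vector level (limma adjusted p = 0.347). ZNF573 stood at 0.878, 0.988 and 1.24 FPKM in miR-200a libraries, against 1.75, 1.28 and 1.56 in vector libraries, at 0.678 of the vector level (limma adjusted p = 0.350). In both the groups came close, miR-200a library 2 of ZNF567 and library 3 of ZNF573 lying nearest to the vector range. ZNF573 and ZNF790 reached the 1 FPKM limit in every vector library but not in every miR-200a library. Their passing thus needed the vector libraries, where they were higher.

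Cluster 6 also holds ZNF420, reported to restrain p53-dependent cell death, at 1.19, 1.56 and 1.30 FPKM in miR-200a libraries, against 1.64, 1.56 and 1.66 in vector libraries. Its highest miR-200a library and its lowest vector library were almost equal. ZNF382, a repressor often silenced in tumours, was below the limit at 0.233, 0.332 and 0.350 FPKM in miR-200a libraries, against 0.420, 0.435 and 0.366 in vector libraries. Of the 10 tested members of cluster 6 all had a negative log2 difference, with a median of -0.17, where 6352 of all 12231 tested genes were below 0. In that cluster 4 (40%) were lower without overlap, against 10.7% of all tested genes. Its tested members had a median GC content of 38.4%. With the GC content and length correction the log2 difference was -0.23 for ZNF567 and ZNF573, -0.062 for ZNF146 and -0.065 for ZNF420. Without it the values were -0.33, -0.31, -0.14 and -0.16.

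In cluster 3, ZNF791 stood at 4.78, 5.47 and 4.67 FPKM in miR-200a libraries, against 6.51, 5.69 and 6.37 in vector libraries (log2 difference -0.27, SE 0.085, limma adjusted p = 0.297). Every miR-200a library was lower. Cluster 3 as a whole had a median of -0.086 over 13 tested members, and cluster 2 one of -0.12 over 12. In cluster 2, ZNF558, reported to repress the mitophagy gene SPATA18, averaged 1.98 ± 0.145 FPKM in miR-200a libraries and 2.23 ± 0.216 FPKM in vector libraries (SD, n = 3 each).

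**Figure D3:**
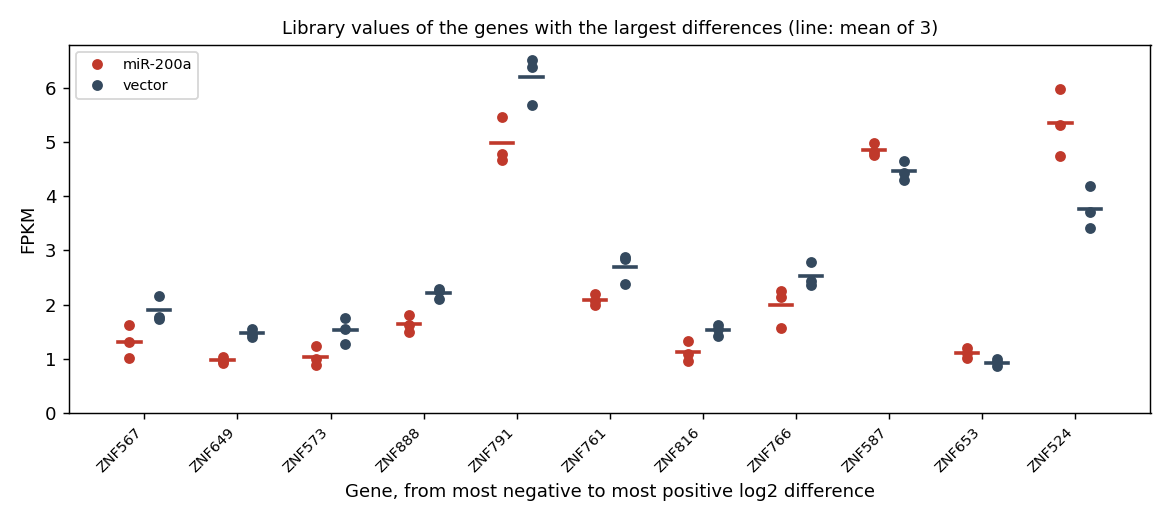
Points are the FPKM of single libraries for the 8 most negative and the 3 positive differences among tested members whose groups do not overlap, miR-200a left of vector for each gene, and short lines are means of 3. ZNF649 and ZNF888 have their miR-200a libraries well below their vector libraries, and ZNF524 well above.

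Only 3 tested members (2.24%) were higher without overlap, against 8.29% of all tested genes. ZNF524, reported to bind telomeric DNA, stood at 5.97, 4.74 and 5.31 FPKM in miR-200a libraries, against 3.42, 3.70 and 4.18 in vector libraries. That is 1.42 times the vector level, with a log2 difference of 0.41 (SE 0.101, limma adjusted p = 0.208), higher in 3 of 3 libraries. Its GC content is 64.9%, and with the GC content and length correction its log2 difference was 0.25 (limma adjusted p = 0.073). ZNF587 stood at 4.98, 4.76 and 4.82 FPKM in miR-200a libraries, against 4.65, 4.30 and 4.42 in vector libraries (limma adjusted p = 0.513). Its log2 difference was 0.10, and 0.14 with that correction. ZNF653 stood at 1.11, 1.02 and 1.20 FPKM in miR-200a libraries, against 0.935, 0.864 and 0.992 in vector libraries (limma adjusted p = 0.570). It reached the 1 FPKM limit through the miR-200a libraries alone, so its place among the 3 is no support for a difference, and with the GC content and length correction its log2 difference was -0.074.

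Below the limit, ZNF90 of cluster 4 was singled out after its values were seen. It had 10, 20 and 20 reads in miR-200a libraries 1, 2 and 3, against 2, 3 and 0 reads in vector libraries 1, 2 and 3. Without a filter on low values its adjusted p was 0.360 with limma, the lowest of any member in that fit.

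In cluster 4 the differences were small. Its 11 tested members had a median log2 difference of -0.017, and 1 (9.09%), ZNF100, was lower without overlap, against 10.7% of all tested genes. ZNF91, which silences SVA retroelements, stood at 1.35, 1.75 and 1.16 FPKM in miR-200a libraries, against 1.33, 1.39 and 1.36 in vector libraries. ZNF93, which silences young L1 elements, was under the limit at 0.236, 0.281 and 0.249 FPKM in miR-200a libraries, against 0.272, 0.211 and 0.233 in vector libraries. Their groups overlapped. ZNF675, an inhibitor of TRAF6 signalling, averaged 1.22 ± 0.203 FPKM in miR-200a libraries and 1.11 ± 0.163 FPKM in vector libraries (SD, n = 3 each). ZNF714 averaged 3.03 ± 0.205 FPKM in miR-200a libraries and 2.79 ± 0.334 FPKM in vector libraries (SD, n = 3 each).

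Clusters 1, 5, 7 and 9 had medians of 0.061, -0.014, -0.027 and 0.017. In cluster 7, ZNF224, a repressor of the aldolase A gene, averaged 1.65 ± 0.281 FPKM in miR-200a libraries and 1.60 ± 0.292 FPKM in vector libraries. ZNF428, the most abundant there, averaged 5.35 ± 0.428 FPKM in miR-200a libraries and 4.33 ± 1.54 FPKM in vector libraries. In cluster 1, ZNF77 averaged 1.36 ± 0.153 FPKM in miR-200a libraries and 1.31 ± 0.198 FPKM in vector libraries. In cluster 9, ZNF274, which recruits SETDB1 to the 3′ ends of zinc finger genes themselves, stood at 4.29, 4.09 and 4.75 FPKM in miR-200a libraries, against 4.36, 3.96 and 4.39 in vector libraries. ZNF671 and ZNF154 are genes whose promoters are often methylated in tumours. ZNF671 averaged 2.02 ± 0.372 FPKM in miR-200a libraries and 1.95 ± 0.111 FPKM in vector libraries, and ZNF154 0.255 ± 0.0549 FPKM in miR-200a libraries and 0.269 ± 0.0638 FPKM in vector libraries. Outside the clusters, ZNF473, a part of the U7 particle that trims histone transcripts, averaged 1.88 ± 0.0954 FPKM in miR-200a libraries and 2.12 ± 0.434 FPKM in vector libraries. All errors are SD with n = 3, and the groups overlapped in each gene of this paragraph.

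**Figure D4:**
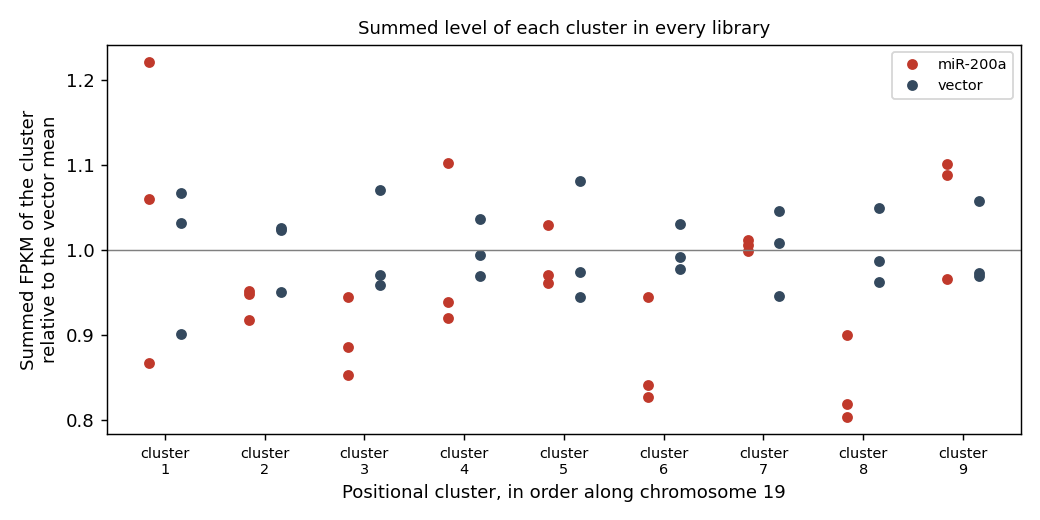
Points are the summed FPKM of all members of a cluster in 1 library, divided by the mean of the 3 vector libraries, miR-200a left of vector. In cluster 8 the miR-200a libraries lie at 52.5 to 58.8 FPKM and the vector libraries at 62.9 to 68.6 FPKM before division, and clusters 1, 2, 4, 5, 7 and 9 overlap between the groups.

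The difference moved with the GC content of the transcript. Over the 134 tested members the log2 difference had a Pearson r of 0.71 and a Spearman rho of 0.53 with the GC content of the longest GENCODE 29 transcript. This is across genes that share the same 6 libraries, and it is given as a description. Divided into 3 groups of 45, 44 and 45 tested members by GC content, in the GC-poor group, up to 41.2%, the median log2 difference was -0.13, with 13 lower and 0 higher without overlap. In the middle group it was -0.096, with 16 lower and 1 higher. In the GC-rich group, above 45.7%, it was 0.045, with 2 lower and 2 higher. Of all tested genes 10.7% were lower and 8.29% higher without overlap.

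The GC-rich end was separate. All 17 tested members with at least 55% GC had a positive log2 difference, with a median of 0.20, and the groups did not overlap in ZNF524 and in ZNF653, which passed the limit through the miR-200a libraries alone. Those are 11.8% of the 17, where 8.29% of all tested genes were higher without overlap. With the GC content and length correction 4 of the named genes among them had negative values, -0.0042 for ZNF358, -0.0065 for ZNF581, -0.074 for ZNF653 and -0.088 for ZNF787. The 17 include ZNF628, ZNF784, ZNF865, ZNF579 and ZNF580 at the start of cluster 9, and 2 of the 17 carry a KRAB run. Their median deviations from the mean over libraries were 0.17, -0.10 and 0.15 in miR-200a libraries 1, 2 and 3 and -0.19, -0.18 and 0.029 in vector libraries 1, 2 and 3. miR-200a library 2 therefore lay with vector libraries 1 and 2, and vector library 3 stood between the groups.

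The other protein-coding genes on chromosome 19, with a median GC content of 60.1%, also had miR-200a libraries 1 and 3 highest and vector library 3 next, at 0.16, -0.13 and 0.15 in miR-200a libraries and -0.066, -0.12 and 0.007 in vector libraries. Of the 543 tested among them only 92 had a log2 difference below 0, and their median was 0.12, so positive differences were not particular to the GC-rich members. In cluster 8, where tested members had a median GC content of 40.8%, miR-200a libraries 1 and 3 were lowest and vector libraries 1 and 2 highest. Those libraries stood at the opposite ends in the 17 members with at least 55% GC. The median deviations of cluster 8 were -0.12, -0.047 and -0.13 in miR-200a libraries 1, 2 and 3 and 0.13, 0.082 and 0.053 in vector libraries 1, 2 and 3, with all miR-200a libraries below all vector libraries.

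In the GC-poor group, cluster 8 members had a median of -0.22 (13 tested, 8 lower without overlap) and the other members one of -0.084 (32 tested, 5 lower). In the middle group the medians were -0.24 in cluster 8 (7 tested, 6 lower) and -0.083 in the other members (37 tested, 10 lower). Of all tested genes 10.7% were lower without overlap. The part of GC content in the lower levels was not tested beyond that correction. After the correction for GC content and gene length, 20 of the 23 members of cluster 8 had a negative difference, with a median of -0.14 against -0.011 for all tested genes. Lower without overlap were then 7 of the 23, against 15 without the correction, where 13.3% of all tested genes were with it.

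**Figure D5:**
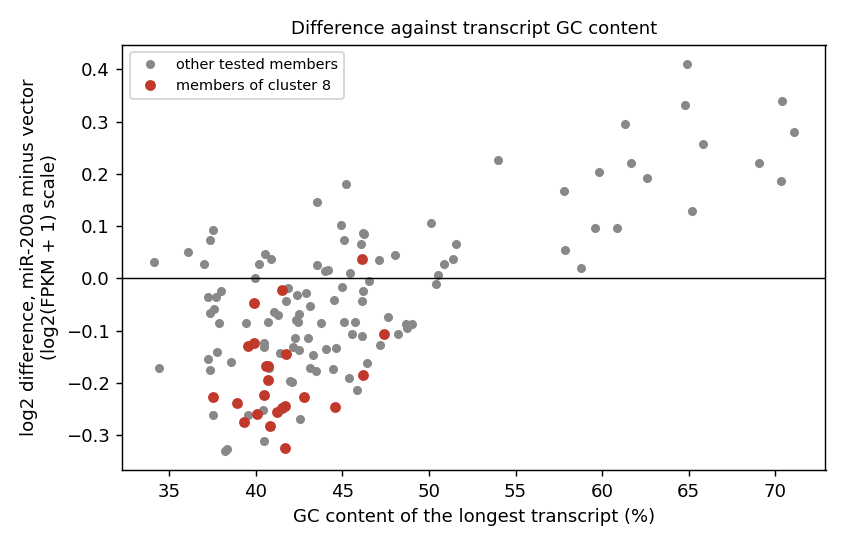
Each point is 1 tested member, with the GC content of its longest transcript in percent and its log2 difference (miR-200a minus vector, log2(FPKM + 1) scale); members of cluster 8 are in red. The 17 members with at least 55% GC all lie above 0, and 22 of the 23 cluster 8 members lie below 0.

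Members with a KRAB run had a median log2 difference of -0.086 (105 tested, 30 lower and 1 higher without overlap), and those without one 0.092 (29 tested, 1 lower and 2 higher). The shares over all tested genes were 10.7% lower and 8.29% higher. Their median GC contents were 42.5% and 57.8%, so the box and the GC content cannot be told apart in this division. By the number of fingers, the median was -0.11 for members with more than 14 fingers, -0.067 for those in between and -0.038 for those with at most 10, at median GC contents of 41.1%, 43.5% and 44.3%.

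Sites of the overexpressed microRNA are shown for ZNF649 and ZNF791, the 2 with a site among the 8 most negative differences without overlap. The seed of miR-200a-3p (bases 2 to 8, in capitals in the RefSeq sequence) pairs with CAGTGTT, in capitals in the target sites, each 29 bases of the longest annotated 3′ UTR in GENCODE 29.
hsa-miR-200a-3p: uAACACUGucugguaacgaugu
ZNF649, the only site: tcttttttccaCAGTGTTtaatctgtcat
ZNF791, site 1: gtccaagtgtaCAGTGTTtataaattctc
ZNF791, site 2: acaatttcctaCAGTGTTcagtacaacaa
ZNF791, site 3: cttttaaagacCAGTGTTagtagaagtgt

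The share of members with a site lay close to that of all genes. CAGTGTT was found in the 3′ UTR of 29 of 133 tested members (21.8%), against 22.4% of 10221 tested protein-coding genes, with median lengths of 1785 and 1442 bases. Members with a site had a median log2 difference of -0.085 and 6 of 29 lower without overlap. Members without one had a median of -0.065 and 25 of 104 lower without overlap. These are 20.7% with a site and 24.0% without, against 10.7% of all tested genes.

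The partners of KRAB proteins were all expressed. Of 25 genes for corepressors and heterochromatin proteins, 25 were tested, and 0 rose and 0 fell at a limma adjusted p under 0.05. With voom 0 passed, and the lowest limma adjusted p was 0.227. TRIM28, the hub to which the KRAB box binds, stood at 98.4, 76.0 and 98.7 FPKM in miR-200a libraries, against 88.0, 74.6 and 90.6 in vector libraries. SETDB1, which writes the repressive histone mark, stood at 4.78, 4.03 and 4.38 FPKM in miR-200a libraries, against 5.43, 4.09 and 3.82 in vector libraries. Their groups overlapped.

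In 2 of the 25, ATF7IP and CBX5, the groups did not overlap, both lower with miR-200a. That is 8% of the list, against 10.7% of all tested genes. ATF7IP, which stabilises SETDB1, stood at 13.4, 14.8 and 13.8 FPKM in miR-200a libraries, against 17.5, 17.2 and 16.5 in vector libraries (limma adjusted p = 0.227). CBX5, a heterochromatin protein gene, stood at 21.8, 25.3 and 22.3 FPKM in miR-200a libraries, against 26.8, 27.5 and 25.4 in vector libraries (limma adjusted p = 0.374). The median log2 difference of the 25 genes was -0.037.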

How the data were processed

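PolyA RNA from 6 libraries was compared, 3 of miR-200a cells and 3 of vector cells, grouped by the sample titles. The authors deposited FPKM values per gene; no source used here names the tools. GRCm38 and mm10, both mouse, are the builds listed per the submitters' processing notes. Identifiers, starts and ends of all 58735 deposited rows equalled human GENCODE 29, so coordinates are on GRCh38. FPKM times gene length was a whole multiple of 1 step per library for 100% of nonzero values (within 0.001), which gave recovered reads.

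Genes with at least 1 FPKM in at least 3 libraries (12231) were tested on log2(FPKM + 1) with limma 3.58.1 in R 4.3.3 (eBayes with trend, group as the only term, two-sided, Benjamini-Hochberg adjustment over all tested genes, threshold 0.05). The added scale understates differences of low genes. The fit was tested on simulated data. The members and lists were chosen with earlier results of these data known. Named members were the 8 most abundant, the 8 largest increases and decreases without overlap (3 increases existed), the most abundant of each cluster and 17 with a described role; other members were named after their values were seen. Planned count-model fits were not run, since the deposited unit is FPKM. limma's voom on recovered reads was used instead, with TMM factors, a scaling by trimmed means of log ratios. Same-numbered libraries were not treated as pairs. Some values are not reported here.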

Additional observations from a re-analysis of the deposited data

How the results depend on the processing

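Across 14 alternatives (another pseudocount, other filters, TMM scaling, the replicate block, GC content and length correction with and without that block, each library left out, and voom), 0 members rose, 0 fell and 0 of the 25 partner genes passed in each. The planned count-model alternatives on recovered reads were not run, since the deposited unit is FPKM. The lowest adjusted p of any member ranged from 0.060 (ZNF524 without miR-200a library 2) to 0.642. Of all tested genes 49 passed, and 120 did with voom. With the GC content and length correction 236 passed, but 37 with that correction and the replicate block. With no filter 5 passed, and 4 to 215 with 1 library left out (215 without miR-200a library 2). The median log2 difference of the members was below 0 in all alternatives. It was -0.11 with a pseudocount of 0.1, -0.035 with the GC content and length correction, -0.035 with that correction and the replicate block, -0.12 with voom, and -0.086 to -0.053 with 1 library left out. The median of cluster 8, a result added after seeing the data, was -0.29 with a pseudocount of 0.1, -0.15 with a filter of 0.1 FPKM and with no filter, -0.14 with the GC content and length correction with or without the replicate block, -0.32 with voom, and -0.24 to -0.17 with 1 library left out. With the correction, 17 members and 7 of cluster 8 were lower without overlap, where 13.3% of all tested genes were. With 1 library left out it was 34 to 52 members, the 52 without miR-200a library 2, where 27.5% of all tested genes were lower without overlap. For the other libraries left out that share was 12.6% to 18.8%, against 10.7% with all libraries. Groups with fewer libraries separate more easily, so these counts do not compare with the main one. The summed level ratio was 0.945 to 0.963 with 1 library left out. The replicate block changed no call among the members: the correlation of deviations between same-numbered libraries was 0.143, 0.366 and -0.00593 for numbers 1, 2 and 3, and miR-200a library 3 correlated best with vector library 1. With the block 69 genes of all tested passed, against 49 without it.

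Of 33 named members tested, 20 kept their sign under every alternative. With the GC content and length correction, with and without the replicate block, the log2 difference changed sign to -0.0042 for ZNF358, -0.074 for ZNF653, 0.065 for ZNF302, -0.0065 for ZNF581, -0.088 for ZNF787 and -0.020 for ZNF274, and the cause was not tested. With 1 library left out it ranged from -0.067 to 0.11 for ZNF224, -0.037 to 0.089 for ZNF77, -0.086 to 0.10 for ZNF317, -0.068 to 0.10 for ZNF91, -0.00058 to 0.13 for ZNF675, -0.039 to 0.13 for ZNF671, -0.013 to 0.076 for ZNF274 and -0.19 to 0.00046 for ZNF473. Of these members 0 had passed the test. Depth limits the members below 1 FPKM, where a few reads decide a value, and intervals for counting error are not given for them.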
